A study of Mus musculus with 6 samples.

Results

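The genes described here encode enzymes and a transporter of the sugars that are attached to epidermal growth factor-like (EGF) repeats of Notch receptors and related secreted proteins. They are Pofut1, Pofut2, Lfng, Mfng, Rfng, Poglut1, Eogt, Gmds and Slc35c1, 9 of the 18193 genes that had a probe set with 1 gene symbol in the platform annotation. All probe sets with 1 of these symbols were taken, which gave 19 of the 45037 probe sets tested. The rule goes by gene function and uses no measured value. RNA of mouse brain was hybridised to 6 one-colour oligonucleotide arrays, 2 in each of 3 groups. Knockout brains carried the Nestin-Cre transgene and 2 floxed copies of Pofut1, NestinCre control brains the transgene with wild-type Pofut1, and Flox control brains 2 floxed copies of Pofut1 without Cre. All 3 groups were of strain C57/Bl6 and 2 months old. The Nestin promoter is known to drive Cre in neural progenitors, whose descendants inherit the deletion, so brain labelled knockout can also hold cells with intact Pofut1. The labels do not say how many animals lie behind a sample.

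Notch receptors, their ligands and other proteins carry EGF repeats that are glycosylated in the secretory pathway. Fucose is taken from GDP-fucose, which Gmds helps to make from GDP-mannose, and is placed on EGF repeats by Pofut1 in the endoplasmic reticulum. The fringe enzymes then extend this fucose with N-acetylglucosamine in the Golgi, which changes how a Notch receptor responds to Delta-like and Jagged ligands. Poglut1 and Eogt place O-glucose and O-linked N-acetylglucosamine on other positions of the same repeats, and Pofut2 places fucose on thrombospondin repeats instead.

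Array medians lay between 7.32 and 7.36 on the log2 scale, and the arrays correlated at 0.993 to 0.995 within groups and at 0.985 to 0.995 between groups. The arrays came from both sexes: knockout replicate 1 and NestinCre control replicate 2 were male by Xist and Eif2s3y, and the other 4 were female. As a check of the tissue, the neuronal Snap25 (13.03 to 13.13), the myelin gene Mbp (13.26 to 13.38) and the astrocytic Aqp4 (12.25 to 12.64, all log2) were bright on every array. Of 5 pericyte and smooth muscle markers 5 were lower in knockout brain and 1, Rgs5, passed limma's adjusted threshold, a call lost with the replicate block (adjusted p = 0.162), with sex as a covariate (0.146) and without any 1 array (0.132 to 0.357). The Rgs5 value was between -2.26 and -2.06 in all 14 alternatives, some of which can change only its SE and p. Kcnj8 was lower by little (-0.11, SE 0.16) and overlapped the controls. The 5 markers had a summed intensity of 1644 to 1966 in knockout, 4163 to 4290 in NestinCre control and 4272 to 4692 in Flox control. Of 4 microglial markers 4 were higher, with sums of 6802 to 6888 in knockout, 5831 to 5853 in NestinCre control and 5943 to 6609 in Flox control. Tyrobp (0.48) and Aif1 (0.70) lay above every control array on both knockout arrays. Csf1r (0.07, SE 0.08) and Cx3cr1 (0.19, SE 0.11) overlapped the controls. For 5 pituitary markers the sums were 585 to 660 in knockout, 494 to 575 in NestinCre control and 942 to 2175 in Flox control. Of 6 choroid plexus markers 6 were lower, with sums of 12684 to 12928 in knockout, 13258 to 14313 in NestinCre control and 13474 to 13652 in Flox control. Ttr, by far the brightest, makes up most of these sums and was at -0.04 (SE 0.06), while the others were at -0.45 to -0.34. Of 4 astrocyte markers 3 were lower, with sums of 22217 to 23060 in knockout, 23719 to 23879 in NestinCre control and 23068 to 23412 in Flox control. The 3 were Slc1a2 (-0.23), Slc1a3 (-0.19) and, by little, Gja1 (-0.03). Aqp4 went the other way (0.25), with both knockout arrays above every control array, so the sums join opposite shifts. The median log2 difference between knockout and both controls was 0.004 for 4 neuronal markers, -0.18 for 3 oligodendrocyte markers, 0.06 for 4 endothelial markers and 0.04 for 2 blood markers. Array values have no true zero, so no marker is at 0. The part of these shifts in the results that follow was not tested.

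Pofut1, the targeted gene, was lower in both knockout arrays than in every control array on each of its 3 probe sets. The brightest, 1443881_at, had intensities of 610 and 696 in knockout replicates 1 and 2. It had 918 and 874 in NestinCre control replicates 1 and 2. In Flox control replicates 1 and 2 it had 992 and 899. The groups of knockout and control arrays did not overlap, with a gap of 0.33 on the log2 scale between the higher knockout array and the lowest control. The controls together spanned less than the distance from either knockout array to their mean, and knockout replicates 1 and 2 stood at 66.3% and 75.6% of the mean of the 4 controls. On both knockout arrays it was brighter than the median of the array. In bulk tissue, fewer cells that express a gene and less RNA per cell cannot be told apart. The position of the probes with regard to the floxed part of the gene is stated in no label or file, which limits them as a check of the genotype.

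The log2 difference of the brightest Pofut1 probe set was -0.50 (SE 0.08) between knockout and the mean of both controls, with a 95% interval of -0.71 to -0.29. Its unadjusted limma p was 0.00170, and the adjusted p over all probe sets was 0.211, which did not pass the threshold of 0.05. The second probe set, 1456323_at, had 90.0 and 87.1 in knockout, 110 and 110 in NestinCre control and 103 and 120 in Flox control. It differed by -0.32 (SE 0.08), with a limma adjusted p of 0.286. The third, 1450137_at, had 55.2 and 55.4 in knockout, 67.8 and 60.7 in NestinCre control and 63.6 and 58.4 in Flox control. It differed by -0.18 (SE 0.07), with a limma adjusted p of 0.460. The last 2 probe sets were dim, below the overall median brightness of 7.34 (log2), and knockout and control arrays were separated by only 0.19 and 0.08. Within each sex, the brightest probe set differed by -0.52 between the male knockout and the male NestinCre control array, and by -0.43 between the female knockout array and the mean of the 3 female controls.

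Against each control alone the brightest Pofut1 probe set gave similar values. Knockout differed from NestinCre control, with which it shares Cre, by -0.46 (SE 0.09, limma adjusted p = 0.533). It differed from Flox control, with which it shares the floxed copies, by -0.54 (SE 0.09, limma adjusted p = 0.142). Both comparisons use the same knockout arrays. NestinCre control differed from Flox control, the comparison in which no group had both Cre and floxed copies, by -0.08 (SE 0.09), with an interval of -0.32 to 0.16 and a limma adjusted p of 0.837. The difference between the 2 control groups is also the difference between both knockout comparisons, so these did not differ beyond the spread between arrays.

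**Figure D1:**
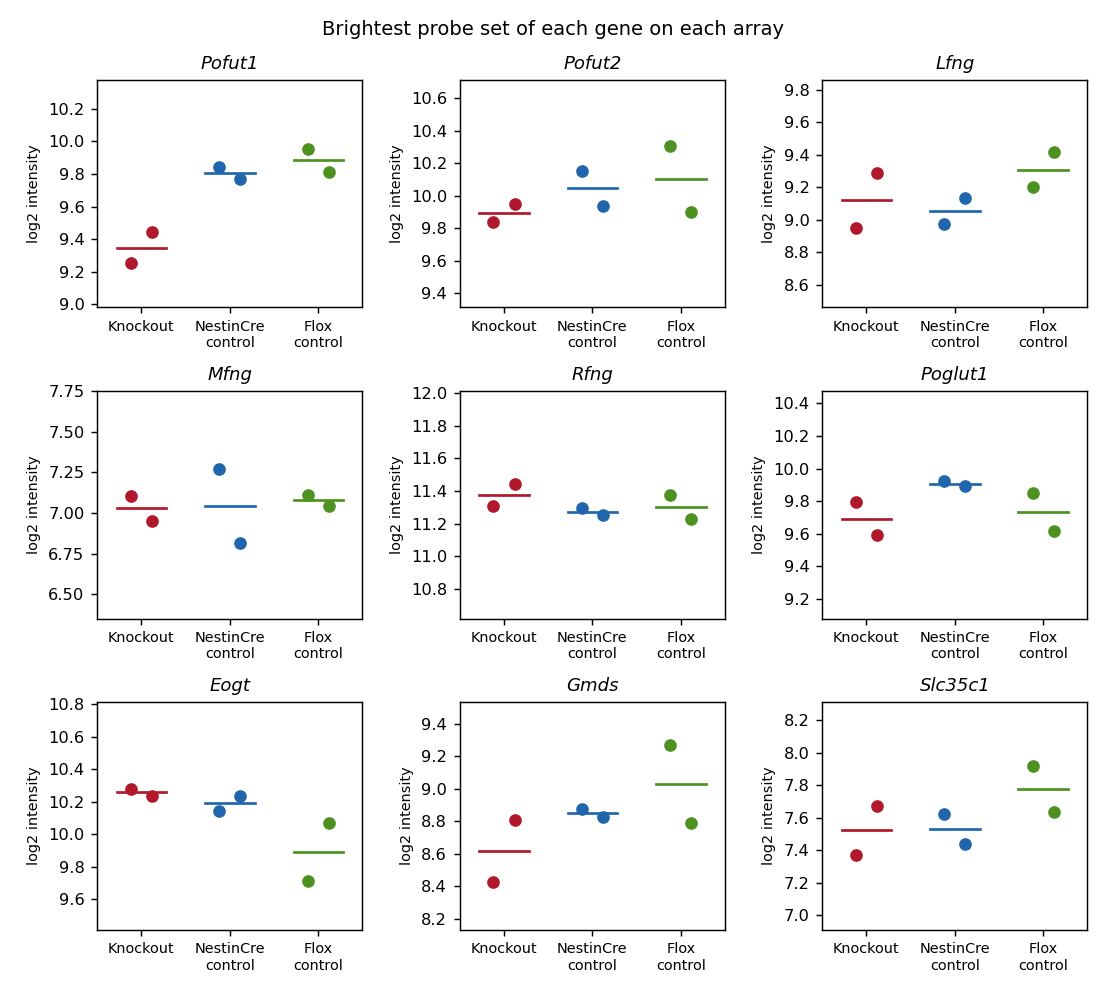
The log2 intensity of the brightest probe set of each of the 9 genes is shown for each array (points) with the group mean (bar), for knockout, NestinCre control and Flox control with 2 arrays each; every panel spans the same height on the log2 scale. Only the Pofut1 panel has both knockout points below all 4 control points, with 9.25 and 9.44 in knockout against 9.77 to 9.95 in controls.

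Over the 19 probe sets, 0 passed a limma adjusted p of 0.05 in knockout versus both controls, a comparison in which 0.0155% of all probe sets passed. At an unadjusted p under 0.05 there were 3 member probe sets, 2 of Pofut1 and 1 of Eogt, which is 15.8% of them beside 11.1% of all probe sets. Both knockout arrays lay below all 4 controls for 3 probe sets, all of Pofut1, where 9.19% of all probe sets did so. They lay above for 1, of Eogt, where 8.77% did so. These shares stand near those of all probe sets, so the counts are no result about the gene group as a whole. The median difference of the 19 was -0.06, beside -0.0052 over all probe sets, and 13 were below 0 and 6 above.

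The brightest probe sets of the other 8 genes differed by -0.32 to 0.22, and each of their 95% intervals contained 0. For 6 of them, Lfng, Mfng, Rfng, Poglut1, Eogt and Slc35c1, the interval did not reach the -0.50 seen for Pofut1. The intervals of Pofut2 and Gmds did reach it, so these arrays do not separate their differences from one of that size. The Pofut1 value has its own interval, -0.71 to -0.29, and no test compared the other genes with Pofut1. Intervals are per gene and not adjusted for their number.

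**Figure D2:**
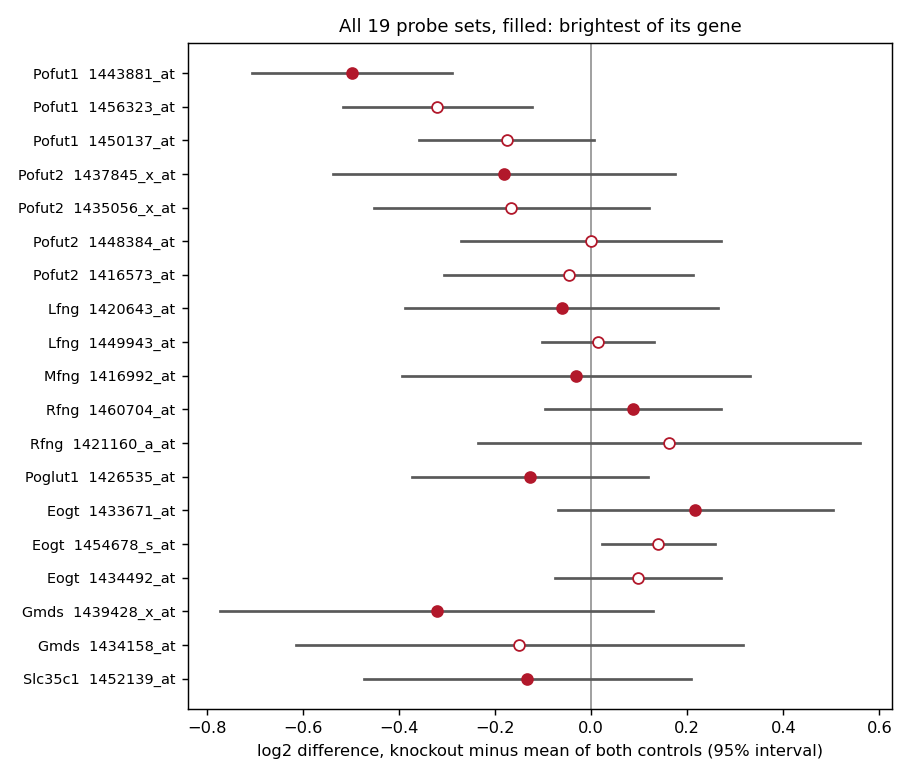
Log2 difference between knockout and the mean of both controls for all 19 probe sets, with 95% intervals from limma; filled points mark the brightest probe set of each gene and open points the others. The 3 Pofut1 probe sets lie at -0.50, -0.32 and -0.18, and of the other 16 only 1454678_s_at of Eogt has an interval that leaves out 0.

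Pofut2, the O-fucosyltransferase of thrombospondin repeats, had 4 probe sets, and none separated knockout from controls. The brightest, 1437845_x_at, had 914 and 988 in knockout, 1139 and 980 in NestinCre control and 1267 and 954.5 in Flox control. Its difference was -0.18 (SE 0.14, 95% interval -0.54 to 0.17, limma adjusted p = 0.722), and knockout replicate 2 lay among the controls. It was -0.08 without Flox control replicate 1 and -0.28 without Flox control replicate 2. The other probe set of the same type, 1435056_x_at, gave -0.17 (SE 0.11). The 2 remaining probe sets, 1448384_at and 1416573_at, gave -0.0004 (SE 0.10) and -0.05 (SE 0.10). The suffix x marks probe sets with probes that can match other transcripts. For both such Pofut2 probe sets Flox control replicate 1 was the highest array.

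The 3 fringe genes encode the Golgi glycosyltransferases that extend O-fucose, and none differed between knockout and controls beyond the spread between arrays. Lfng (lunatic fringe), known as a Notch-regulated gene in the segmenting mesoderm of the embryo, had 495 and 626 in knockout, 504 and 562 in NestinCre control and 588 and 683 in Flox control on 1420643_at. The replicates of knockout differed from each other by 0.34 on the log2 scale, more than the difference of -0.06 (SE 0.13, 95% interval -0.39 to 0.26, limma adjusted p = 0.927). The direction was not the same against each control, with 0.06 (SE 0.15) against NestinCre control and -0.19 (SE 0.15) against Flox control. The second Lfng probe set, 1449943_at, was dim at 59.1 to 61.2 on all 6 arrays.

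Because Lfng is known to be regulated by Notch elsewhere, the window from 250 bases before to 50 after the annotated start was searched on both strands for GTGGGAA, a site form of the Notch cofactor RBPJ, and for CACGTG and CACGCG, forms bound by Hes and Hey repressors. RefSeq (GRCm38.p6) gave such windows for 7 of the 9 genes, 8 windows in all. Lfng was the only one of these genes with all 3 motifs, and Pofut1, shown beside it as the targeted gene, had none. Capitals mark the matches; CACGTG and GTGGGAA overlap in Lfng, and CGCGTG is CACGCG on the other strand. The Lfng window is chr5:140607091-140607390 on the + strand and the Pofut1 window chr2:153241282-153241581 on the + strand.
Lfng: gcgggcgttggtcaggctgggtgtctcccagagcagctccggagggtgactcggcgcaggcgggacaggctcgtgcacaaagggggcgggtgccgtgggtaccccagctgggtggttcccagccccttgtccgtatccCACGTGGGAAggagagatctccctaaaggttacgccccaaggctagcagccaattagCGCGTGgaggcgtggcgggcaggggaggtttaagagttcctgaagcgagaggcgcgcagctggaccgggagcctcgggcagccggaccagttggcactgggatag
Pofut1: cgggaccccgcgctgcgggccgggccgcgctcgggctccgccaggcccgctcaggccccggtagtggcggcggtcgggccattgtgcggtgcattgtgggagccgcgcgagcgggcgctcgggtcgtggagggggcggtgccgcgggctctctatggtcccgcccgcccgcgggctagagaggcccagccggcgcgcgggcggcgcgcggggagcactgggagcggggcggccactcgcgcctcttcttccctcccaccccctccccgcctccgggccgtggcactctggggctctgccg
Among 32851 windows of the same length, 6.38% held GTGGGAA, 7.15% CACGTG and 9.27% CACGCG on either strand. CACGTG was also present in Poglut1, and CACGCG in Pofut2 and Rfng. The matches describe letters in these windows, not binding.

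Mfng (manic fringe) had 138 and 124 in knockout, 155 and 113 in NestinCre control and 138 and 132 in Flox control on its only probe set, 1416992_at. The NestinCre control arrays enclosed all others, and the difference was -0.03 (SE 0.14, 95% interval -0.39 to 0.33, limma adjusted p = 0.973). Rfng (radical fringe) had 2534 and 2778 in knockout, 2511 and 2437 in NestinCre control and 2655 and 2396 in Flox control on 1460704_at. It had the tightest estimate of the 3, at 0.09 (SE 0.07, 95% interval -0.10 to 0.27, limma adjusted p = 0.743). It was 0.15 without knockout replicate 1, 0.02 without knockout replicate 2 and 0.05 without Flox control replicate 2. Its second probe set, 1421160_a_at, had 251 in knockout replicate 2 and 175 to 199 on the other 5 arrays. The knockout replicates differed by 0.52 there, beside a difference of 0.16 (SE 0.15).

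Poglut1, which places O-glucose on EGF repeats, had 888 and 771 in knockout, 972 and 949 in NestinCre control and 922 and 785 in Flox control on 1426535_at. The groups overlapped through Flox control replicate 2, and the difference was -0.13 (SE 0.10, 95% interval -0.37 to 0.12, limma adjusted p = 0.719). It was -0.23 without knockout replicate 1, -0.03 without knockout replicate 2 and -0.07 without Flox control replicate 1. Knockout lay below NestinCre control on all arrays, with a difference of -0.21 (SE 0.11, limma adjusted p = 0.968), while against Flox control it was -0.04 (SE 0.11).

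Eogt, which places O-linked N-acetylglucosamine on EGF repeats, was above 0 on all 3 of its probe sets. The brightest, 1433671_at, had 1243 and 1206 in knockout, 1129 and 1206 in NestinCre control and 840 and 1076 in Flox control. The second, 1454678_s_at, had 1079 and 1049 in knockout, 1010 and 1018 in NestinCre control and 909 and 931 in Flox control. On this second probe set the 3 groups did not overlap and were ordered knockout, NestinCre control and Flox control from high to low. Its difference was 0.14 (SE 0.05), with an unadjusted limma p of 0.0281 and an adjusted p of 0.387. The unadjusted p stayed under 0.05 in 2 of 14 alternatives and in 0 of the 6 that left out an array. That of the brightest was 0.22 (SE 0.11, limma adjusted p = 0.561), and that of the remaining dim one, 1434492_at, 0.10 (SE 0.07).

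The Eogt difference was larger against Flox control than against NestinCre control, and that gap is the difference between the 2 control groups. Knockout differed from Flox control by 0.36 (SE 0.13) and 0.21 (SE 0.05) on 1433671_at and 1454678_s_at, with unadjusted limma p of 0.0367 and 0.0106. From NestinCre control it differed by 0.07 (SE 0.13) and 0.07 (SE 0.05), with unadjusted limma p of 0.617 and 0.243. NestinCre control differed from Flox control by 0.30 (SE 0.13) and 0.14 (SE 0.05), with unadjusted limma p of 0.0696 and 0.0447. None of these passed after limma's adjustment over all probe sets, with adjusted p of 0.194 at the lowest. Without Flox control replicate 1, the lowest array, the brightest probe set gave 0.13 (SE 0.06) against both controls, and without Flox control replicate 2 it gave 0.31 (SE 0.06). Flox control is also the group with the high pituitary sums given above, and the part of that in Eogt was not tested.

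Gmds, the enzyme that starts the conversion of GDP-mannose to GDP-fucose, had 345 and 448 in knockout, 470 and 453.5 in NestinCre control and 618 and 442.5 in Flox control on 1439428_x_at. This probe set also carries the suffix x described above for Pofut2. Knockout replicate 1 was the lowest array and Flox control replicate 1 the highest, and knockout replicate 2 lay among the controls. The difference was -0.32 (SE 0.17, 95% interval -0.77 to 0.13, limma adjusted p = 0.586), the lowest of the 8 genes and the least precise. It was -0.13 without knockout replicate 1, -0.51 without knockout replicate 2, -0.20 without Flox control replicate 1 and -0.44 without Flox control replicate 2. The second probe set, 1434158_at, had 237 and 362 in knockout, 293 and 308 in NestinCre control and 370 and 333 in Flox control. There the 2 knockout arrays enclosed 3 of the 4 controls, and the difference was -0.15 (SE 0.18). Slc35c1, the transporter that carries GDP-fucose into the Golgi, had 166 and 204 in knockout, 197.5 and 174 in NestinCre control and 242 and 199 in Flox control on 1452139_at. Its groups overlapped, with a difference of -0.13 (SE 0.13, 95% interval -0.47 to 0.21, limma adjusted p = 0.801).

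**Figure D3:**
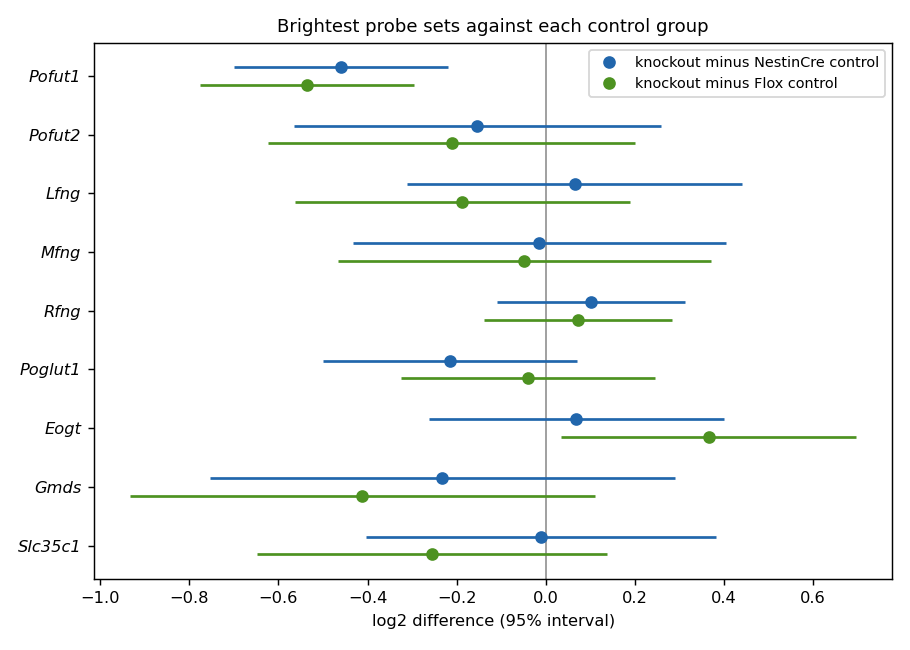
Log2 differences of the brightest probe set of each gene, knockout minus NestinCre control (blue) and knockout minus Flox control (green), with 95% intervals from limma; both comparisons share the 2 knockout arrays. Pofut1 lies at -0.46 and -0.54 with intervals below 0, and Eogt at 0.07 and 0.36.

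In the comparisons with 1 control group, 0 of the 19 probe sets passed limma's adjusted threshold, as did 0% of all probe sets against NestinCre control and 0.00444% against Flox control. At an unadjusted p under 0.05 there were 3 members against NestinCre control, all of Pofut1, beside 5.81% of all probe sets. There were 4 against Flox control, 2 each of Pofut1 and Eogt, beside 15.9% of all. Between NestinCre and Flox control 0 passed, as did 0% of all, and 1 had an unadjusted p under 0.05, that of Eogt, beside 10.4% of all. Lfng (-0.25), Slc35c1 (-0.25) and Gmds (-0.18) had the lowest differences among brightest probe sets in that comparison, each with an interval that contained 0.

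Other genes of the same pathways were taken from lists. Of 26 measured enzymes and transporters in 3 further lists, 14 were below 0 and 12 above, with a median of -0.008 beside -0.02 for the brightest probe sets of all genes. By limma 0 passed the adjusted threshold, as 0.0275% of the brightest probe sets of all genes did, and 1 had an unadjusted p under 0.05, beside 10.6% of all genes. In the supply of GDP-fucose and GDP-mannose, 0 of 9 passed. The smallest p there belonged to the GDP-mannose pyrophosphorylase subunit Gmppa (0.13, SE 0.07), the mannose phosphate isomerase Mpi (0.14, SE 0.07) and the phosphomannomutase Pmm1 (-0.13, SE 0.10). Among 9 other enzymes and transporters of EGF and thrombospondin repeat glycans, 0 passed. The first were Poglut2, which also places O-glucose on EGF repeats (0.15, SE 0.07), B3glct, which extends O-fucose on thrombospondin repeats (-0.13, SE 0.07), and the O-GalNAc transferase Galnt11 (0.16, SE 0.09).

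Fut10, 1 of 8 other fucosyltransferases listed, was the enzyme with the unadjusted p under 0.05. Its brightest probe set had log2 intensities of 7.51 and 7.06 in knockout, 7.50 and 7.61 in NestinCre control and 7.84 and 8.01 in Flox control. Knockout replicate 1 lay between the NestinCre control arrays, and both knockout arrays lay below Flox control. The difference was -0.45 (SE 0.14, limma adjusted p = 0.372), with -0.27 against NestinCre control and -0.64 against Flox control. A second probe set gave -0.47 (SE 0.13) and the third 0.01 (SE 0.06), and both of these were dim. Fut1 (-0.07, SE 0.05) and Fut9 (-0.06, SE 0.07), which fucosylate the ends of glycan chains, came next.

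Of 11 measured genes for proteins with O-fucosylated EGF repeats, 6 were below 0 and 5 above, with a median of -0.03. By limma 0 of their brightest probe sets passed the adjusted threshold, where 0.0275% of those of all genes did. An unadjusted p under 0.05 was seen for 3 of the 11, Notch3, Plat and Agrn, beside 10.6% of all genes. Notch3, a receptor known from pericytes and vascular smooth muscle, was at -1.17 (SE 0.17, limma adjusted p = 0.182), and its second probe set fell by 1.11 (SE 0.05, limma adjusted p = 0.0345). That call was lost with the replicate block (limma adjusted p = 0.281), with sex as a covariate (0.153) and without any 1 array. The value was between -1.15 and -1.04 in all 14 alternatives, some of which can change only its SE and p. The pericyte and smooth muscle sums were lower in the same arrays, and their part in it was not tested. Plat, tissue plasminogen activator (-0.25, SE 0.10), and Agrn, the matrix proteoglycan agrin (0.15, SE 0.06), had unadjusted limma p of 0.0463 and 0.0475. Against NestinCre control Plat was at -0.06 and Agrn at 0.05, and against Flox control at -0.44 and 0.24. NestinCre control differed from Flox control by -0.38 for Plat and 0.19 for Agrn. Their second probe sets had the opposite sign, at 0.06 (SE 0.12) for Plat and -0.02 (SE 0.05) for Agrn. Of 17 measured genes for proteins with thrombospondin repeats, the substrates of Pofut2, 10 were below 0 and 7 above, with a median of -0.03. By limma 0 passed, beside 0.0275% of all genes, and 1 had an unadjusted p under 0.05, beside 10.6% of all genes. The gene with that p was Spon1, the matrix protein spondin (0.16, SE 0.05, limma adjusted p = 0.341). Adamtsl1 (-0.27, SE 0.11) and Adamts9 (0.23, SE 0.10) followed.

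The 5 genes whose pattern over the 6 arrays was most like that of the brightest Pofut1 probe set were picked by Pearson's r among 3854 probe sets above the median brightness with an SD over arrays of at least 0.2. They were Ephx2, soluble epoxide hydrolase (r = 0.9996), Grm3, a metabotropic glutamate receptor (0.9988), Myl9, a myosin light chain (0.9958), Naaa, an acid amidase of lipid amides (0.9956), and Phgdh, the first enzyme of serine synthesis (0.9946). Of the 3854, 61 had r above 0.95 and 26 under -0.95, and r over 6 arrays is given as a description. Ephx2 had log2 intensities of 8.63 and 8.83 in knockout, 9.25 and 9.19 in NestinCre control and 9.39 and 9.23 in Flox control. Its difference was -0.54 (SE 0.08), and those of the others were -0.38 for Grm3, -0.49 for Myl9, -0.68 for Naaa and -0.69 for Phgdh. Like Pofut1, each had both knockout arrays below all 4 controls, as 9.19% of all probe sets did. Each also had knockout replicate 1 below replicate 2 and Flox control replicate 1 as the highest array. The choice by r favours this shared order, so it is no separate likeness. None of the 5 passed limma's adjusted threshold (adjusted p from 0.146 to 0.224). All 4 Phgdh probe sets and 2 of 3 for Naaa were below 0.

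**Figure D4:**
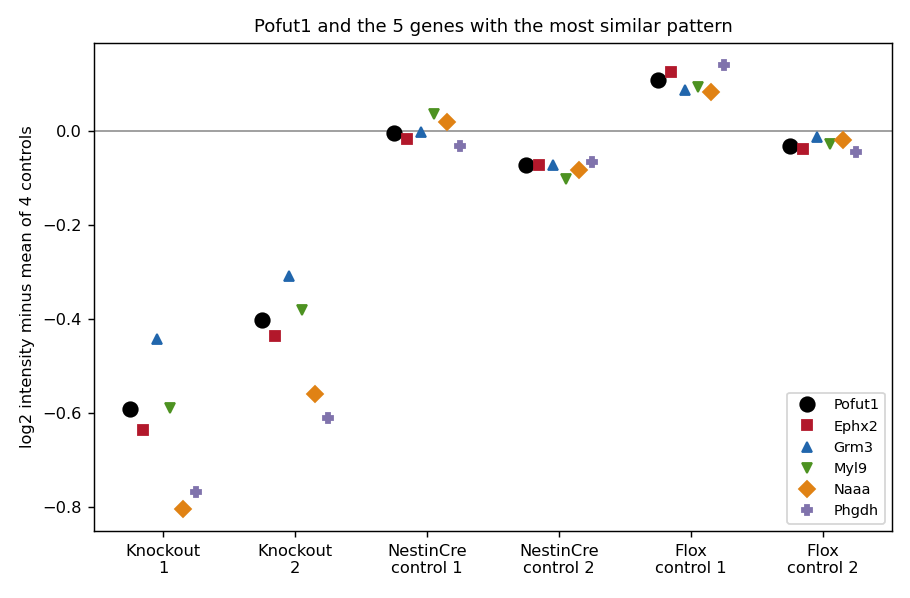
Log2 intensity on each of the 6 arrays minus the mean of the 4 control arrays, for the brightest Pofut1 probe set (black circles) and the 5 genes chosen for the highest correlation with it. The knockout arrays lie below 0 for all 6 genes, and for the controls the points lie close to each other on each array; the similarity is the basis of the choice and not a test.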

How the data were processed

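The deposited table holds a linear intensity for each probe set on each array. The tools named by the submitters' processing notes are GCOS and RMA, with no version, role or order; RMA in general corrects background, normalises by quantiles and can understate differences of dim probe sets. Per the labels' protocols, 25 ng of RNA was amplified and labelled with biotin. No genome build of the probe sets was used.

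Each intensity was converted to log2. Of 45101 probe sets, 64 controls were left out. Probe sets were named by the platform annotation, and all 9 genes matched RefSeq (GRCm38.p6) by identifier and symbol. A mean per group was fitted to all 6 arrays with limma 3.58.1 in R 4.3.3 (lmFit, eBayes without trend, 3 residual degrees of freedom, 4.94 with the prior), and p-values were adjusted by Benjamini-Hochberg over all 45037 probe sets. SE is that of the log2 difference. The step was tested on simulated data. No label ties samples to separate animals, so p-values reflect only sample-to-sample spread, possibly technical, and 2 arrays per group limit the precision.

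The members and lists were chosen with earlier results of these data known. All members are named. The brightest probe set stands for a gene. From each further list, genes past the threshold and up to 3 by smallest p are named, and 5 genes by likeness to Pofut1. Of 55 genes in the further lists 54 were measured. The alternatives were a repeated quantile normalization, median centring, a filter on dim probe sets, an intensity trend with and without robust fitting, log2 of the value plus 16, fits restricted to both groups of a comparison, replicate number as a block, sex as a covariate and each array left out.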

Additional observations from a re-analysis of the deposited data

How the results depend on the processing

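The brightest Pofut1 probe set stayed below 0 and short of the adjusted threshold in all 14 alternatives against both controls, from -0.59 to -0.40, with limma adjusted p from 0.110 to 0.499. The filter on dim probe sets, the intensity trend with or without robust fitting and the replicate block change only its SE and p. Its value was -0.46 with sex as a covariate. Leaving out single arrays gave -0.59 to -0.40 against both controls, -0.55 to -0.36 against NestinCre control, -0.63 to -0.44 against Flox control and -0.15 to -0.0056 between the controls. No member probe set passed against both controls in any of the 14. The 3 member probe sets at an unadjusted limma p under 0.05 became 1 among the 14 above the median brightness. Of all probe sets above that median, 10.2% had such a p. Members at such a p were 2 with sex as a covariate and 4 with the repeated quantile normalization, beside 10.3% and 11.2% of all probe sets. Directions near 0 turned for Lfng (0.11) and Slc35c1 (0.017) without knockout replicate 1, and for Mfng with sex as a covariate (0.0063), without knockout replicate 2 (0.04) and without NestinCre control replicate 1 (0.0823). With single arrays left out these genes ranged from -0.23 to 0.11 for Lfng, from -0.28 to 0.017 for Slc35c1 and from -0.15 to 0.0823 for Mfng. The cause was not tested. Over all probe sets, the 7 calls of knockout versus both controls became 9 with quantile normalization, 6 with log2 of the value plus 16, 22 with median centring, 34 above the median brightness, 135 with an intensity trend and 202 with robust fitting as well, 0 with the block or the sex covariate, and 0 or 1 without 1 array.

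Replicate numbers of the labels were not found to pair the arrays: deviations of same-numbered arrays correlated at -0.31 for knockout with NestinCre control, -0.24 for knockout with Flox control and 0.19 between the controls. With the replicate number as a block, the limma adjusted p of Pofut1 was 0.383 against both controls. It was 0.808 against NestinCre control, 0.254 against Flox control and 0.882 between the controls. The values, -0.50 against both controls and -0.08 between the controls, cannot change with this block, because each group holds 1 array of each number. In that fit 3 member probe sets had an unadjusted limma p under 0.05, all of Pofut1, beside 9.82% of all probe sets. The 2 arrays per group limit what could be detected, and 5 of the 19 member probe sets were dim.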
